A study of Mus musculus with 2 samples.

Results

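The genes described here serve to make, break down and sense prostaglandins, and were measured in 661W cells, a line of immortalized cone photoreceptors from the mouse. They were chosen by name, as 10 genes of prostaglandin synthesis and reception (Pla2g4a, Ptgs1, Ptgs2, Ptges, Ptges2, Ptgis, Hpgd, Ptger1, Ptger2 and Ptger4), with the differences of several of them between these libraries already known. The differences between the libraries are therefore a description of the selected genes and are not tested. Of the 10 genes, 7 have values among the 13281 genes of the deposited table. Expression of Ptger2, Ptgis and Hpgd was not analysed here, and only their gene models and, for Ptger2 and Hpgd, their 5′ windows were used. One library came from cells carrying the empty retroviral vector pBabe-Puro (PR661W_Vec) and one from cells carrying the same vector with 3xF-TRPM1 (PR661W_TRPM1), a full-length human TRPM1 cDNA with 3 FLAG tags at its N-terminus. They are called the vector library and the TRPM1 library here. Both were stable, puromycin-selected populations of the one cell line grown in serum-containing medium, with no further treatment or time course in the labels, and the comparison was made to find pathways that respond to TRPM1 in photoreceptor cells. With 1 library per group there is no replicate, so no SD or p-value is given, and every difference is between these 2 libraries.

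Prostaglandins are short-lived lipids that act near the cell that makes them. A phospholipase A2 releases arachidonic acid from membranes, a cyclooxygenase (COX) turns it into prostaglandin H2, and terminal synthases convert that into prostaglandin E2 and the other prostanoids, which act through receptors coupled to G proteins. Ptgs1 encodes COX-1, present in many resting cells, and Ptgs2 encodes COX-2, which is induced by growth factors and inflammatory signals. In the eye, prostaglandins are known for their effects on intraocular pressure, the pupil and the blood-ocular barrier.

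The 5′ ends of the genes that the results turn on are shown first, because the cyclooxygenase genes had the highest levels per length of the set and Ptger4 was the gene that differed most. Each line is the RefSeq window of 250 bases before and 50 bases after the annotated start on GRCm38.p6, written 5′ to 3′ along the gene, with matches to the searched motifs in capitals. The windows are chr1:150099781-150100080 (plus strand) for Ptgs2, chr2:36230176-36230475 (plus strand) for Ptgs1 and chr15:5244138-5244437 (minus strand) for Ptger4.
Ptgs2: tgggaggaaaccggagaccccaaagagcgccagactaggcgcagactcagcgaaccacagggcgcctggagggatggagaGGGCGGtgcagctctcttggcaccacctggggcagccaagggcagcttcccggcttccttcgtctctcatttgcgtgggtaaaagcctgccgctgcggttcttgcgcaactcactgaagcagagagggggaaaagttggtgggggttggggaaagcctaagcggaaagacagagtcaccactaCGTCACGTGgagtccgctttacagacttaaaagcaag
Ptgs1: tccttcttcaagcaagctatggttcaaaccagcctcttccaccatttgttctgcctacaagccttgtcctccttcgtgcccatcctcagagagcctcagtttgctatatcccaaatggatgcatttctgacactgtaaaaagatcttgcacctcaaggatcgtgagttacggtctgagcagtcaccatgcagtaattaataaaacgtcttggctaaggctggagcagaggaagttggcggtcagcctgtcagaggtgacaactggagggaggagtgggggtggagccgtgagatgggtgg
Ptger4: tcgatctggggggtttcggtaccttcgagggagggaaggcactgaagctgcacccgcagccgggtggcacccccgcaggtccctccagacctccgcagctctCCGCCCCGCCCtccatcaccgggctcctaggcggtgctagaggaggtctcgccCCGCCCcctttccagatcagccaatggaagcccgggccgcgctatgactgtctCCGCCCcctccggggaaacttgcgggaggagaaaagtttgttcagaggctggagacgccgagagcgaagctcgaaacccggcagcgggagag

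The motifs searched on both strands were the cyclic AMP response element (CRE, TGACGTCA) and its core (TGACG), the AP-1 site (TGANTCA), the STAT element (GAS, TTCNNNGAA), the E-box (CACGTG), the TATA box (TATAAA) and the GC box (GGGCGG). The Ptgs2 window held a CRE core on the opposite strand at positions 14 to 18 counted from the annotated start, and it overlapped an E-box at positions 17 to 22, so that both read as the one capital run near the end of the window. A GC box lay 170 to 165 bases before the Ptgs2 start. The Ptger4 window held 4 GC boxes on the opposite strand, at 148 to 143, 143 to 138, 95 to 90 and 42 to 37 bases before the start, the first pair sharing 1 base. The Ptgs1 window held none of the 7 motifs. Its GC content was 50.7%, against 59.3% for Ptgs2, 67.0% for Ptger4 and a median of 52.7% over all windows.

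Windows were found for 8 of the 10 genes, with 2 windows for Pla2g4a, and not for Ptger1 or Ptgis. Of these 9 windows, 4 held a GC box (35.7% of all 32851 windows of the same length did), 2 an E-box (7.15%), 2 a TATA box (13.6%) and 1 a CRE core (20.8%). The complete CRE (1.79% of all windows), the AP-1 site (7.81%) and the GAS element (8.30%) were in 0 of the 9. A match is a run of letters at an annotated start, and positions move with the start that the annotation gives.

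The deposited values are read counts per gene scaled to an effective library size (CPM). No listed gene is under 1.016 CPM, which leaves a gene near 0 in either library without a value. All values were whole multiples of the worth of 1 read in their library, within 0.01 of that step, which gave 16404444 reads over the listed genes for the empty vector and 17869838 for 3xF-TRPM1, with 17 and 18 reads behind the lowest values. For the TRPM1 library the effective size, 17639743 reads, is below its reads over the listed genes. The scaling was therefore not to the plain total. Differences are log2 of 3xF-TRPM1 over empty vector with 0.5 CPM added to both values, which understates differences of low genes. The bracketed 95% interval (exact binomial, Clopper-Pearson, on the ratio of reads) has no added value, is not centred on the log2 difference for low genes, and covers counting error only. A gene is called higher or lower where the difference reached 1.5-fold and the interval excluded 1-fold. Of the cone markers, 3 of 18 had values (Gnat2, Thrb and Rom1), their summed level was 21.5 CPM in the vector library and 20.9 CPM in the TRPM1 library, and the cone opsins were not among the listed genes. Macrophage markers were listed for 2 of 11 genes (Cd68 and Cd14, both lower, 15.9 against 9.07 CPM summed), endothelial markers for 1 of 7 (Kdr, 2.09 against 2.61 CPM) and pigment epithelium markers for 3 of 9 (28.6 against 32.4 CPM). Of the fibroblast and matrix markers 8 of 10 were listed and 7 were higher (3853 against 6826 CPM summed), and of the Mueller glia and astrocyte markers 6 of 9 were listed and 4 were higher (724 against 1160 CPM). Mouse Trpm1 was not analysed here, and the labels could not be checked from the values.

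The cyclooxygenase genes had the highest levels per length of the 7 listed genes in both libraries and were 1.38-fold to 1.44-fold lower in the TRPM1 library. Ptger4, the gene of the prostaglandin E2 receptor EP4, was 2.02-fold higher there from a low level. Ptges, Ptges2 and Ptger1 had intervals that included no difference. The macrophage markers Cd68 and Cd14 were lower in the same library as the cyclooxygenases. Ptprc, Csf1r and Adgre1 were not among the listed genes, which leaves their levels unknown. Of the fibroblast and matrix markers 7 of 8 listed genes were higher together with Ptger4, as were 4 of 6 Mueller glia and astrocyte markers. The part of any of these cell types in the differences was not tested. By the 1.5-fold rule, 1 of the 7 listed genes was higher (Ptger4; 3.91% of all listed genes were higher), 0 were lower (3.07% of all genes) and 6 were neither. By the interval alone, without the 1.5-fold limit, 1 gene lay above (23.1% of all genes) and 3 lay below (Ptgs1, Ptgs2 and Pla2g4a; 19.7% of all genes). The median log2 difference of the 7 genes was -0.13, against 0.0093 over all genes. Because the genes were selected with these differences known, nothing is read from these shares.

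**Figure D1:**
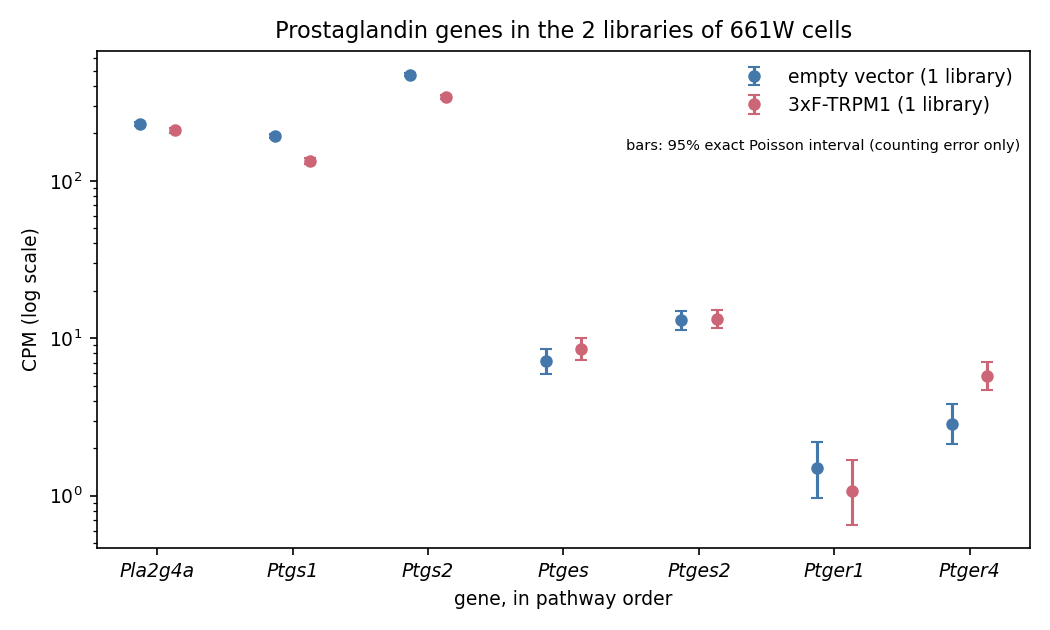
Levels of the 7 listed prostaglandin genes in the 2 libraries, in CPM on a log axis, with genes in pathway order. Points are 1 library each and bars are the 95% exact Poisson interval of its reads. The intervals of the libraries are apart for Ptgs1, Ptgs2, Pla2g4a and Ptger4, and overlap for Ptges, Ptges2 and Ptger1.

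Pla2g4a encodes cytosolic phospholipase A2 alpha, the calcium-dependent enzyme that releases arachidonic acid from membrane lipids. Its level was 229.8 CPM in the vector library and 209.2 CPM in the TRPM1 library (3844 and 3691 reads). The log2 difference was -0.13 (-0.20 to -0.07), a small difference that the depth could resolve and that did not reach 1.5-fold; 26.3% of all genes had a difference as low or lower. The gene (chr1:149829618-149961290, minus strand, GRCm38) lies next to Ptgs2 in a head-to-head arrangement, with 138.74 kb and 3 annotated genes between them (Gm19136, Gm44329 and Ptgs2os). Both neighbours had their interval below 1-fold, with Ptgs2 showing the larger difference.

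Ptgs2 (ENSMUSG00000032487, chr1:150100031-150108227, plus strand) encodes the inducible cyclooxygenase and had the highest level of the set. It stood at 471 CPM in the vector library (7879 reads) and at 341 CPM in the TRPM1 library (6010 reads). The level was lower with 3xF-TRPM1, by 1.38-fold, and the counting intervals of the libraries did not overlap. The log2 difference was -0.47 (-0.52 to -0.42), below the 1.5-fold limit, and 4.98% of all genes had a difference as low or lower. Its 5′ window with the overlapping CRE core and E-box is the first of the sequences above.

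Ptgs1 (chr2:36230426-36252272, plus strand), the gene of the constitutive cyclooxygenase, differed in the same direction. Its level was 193 CPM in the vector library (3228 reads) and 134 CPM in the TRPM1 library (2360 reads), 1.44-fold lower. The log2 difference was -0.53 (-0.61 to -0.45), and 3.93% of all genes were as low or lower. The interval thus reached just past the 1.5-fold limit at its lower end while the value itself did not. A share of 3.81% of its exonic bases (148 bases) overlaps the gene model Gm43621. Summed over both genes, cyclooxygenase transcripts were at 664 CPM in the vector library and 474 CPM in the TRPM1 library (11107 and 8370 reads), 1.399-fold lower.

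Ratios between genes of one library do not depend on how the libraries were scaled. Per length, Ptgs2 stood at 2.07 times Ptgs1 (95% interval 1.99 to 2.16) in the vector library and at 2.16 times (2.06 to 2.27) in the TRPM1 library, so the intervals of this ratio overlapped. Relative to the phospholipase that supplies them, both cyclooxygenases were lower in the TRPM1 library. The ratio of Ptgs2 to Pla2g4a per length was 2.86 (2.75 to 2.97) in the vector library and 2.27 (2.18 to 2.37) in the TRPM1 library. For Ptgs1 and Pla2g4a the ratio was 1.38 (1.32 to 1.45) and 1.05 (0.999 to 1.11). In the TRPM1 library Ptgs1 and Pla2g4a were therefore not told apart per length, whereas in the vector library Ptgs1 was above Pla2g4a.

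Terminal synthases use the product of the cyclooxygenases. Ptges (chr2:30889471-30929863, minus strand) encodes microsomal prostaglandin E synthase-1, an inducible enzyme often coupled to COX-2. It stood at 7.17 CPM in the vector library and 8.56 CPM in the TRPM1 library (120 and 151 reads), a log2 difference of 0.24 (-0.10 to 0.61). The interval allows a ratio between 0.933 and 1.53, and no difference was detectable at this depth. Ptges2 (chr2:32395896-32405772, plus strand), the gene of microsomal prostaglandin E synthase-2, stood at 12.97 and 13.21 CPM (217 and 233 reads), a log2 difference of 0.03 (-0.25 to 0.30). The ratio of Ptgs2 to Ptges per length was 56.4 (47.1 to 68.1) in the vector library and 34.2 (29.1 to 40.4) in the TRPM1 library, and these intervals did not overlap. Ptgis, the prostacyclin synthase gene (chr2:167191805-167240604, minus strand), and Hpgd, the gene of the dehydrogenase that inactivates prostaglandin E2 (chr8:56294585-56321043, plus strand), have no value.

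The receptors of prostaglandin E2 had the lowest levels of the set, in CPM and per length. Ptger4 (ENSMUSG00000039942, chr15:5206661-5244187, minus strand) encodes EP4, which couples mainly to Gs and raises cyclic AMP. Its level was 2.87 CPM in the vector library (48 reads; 95% exact Poisson interval 2.12 to 3.80 CPM) and 5.78 CPM in the TRPM1 library (102 reads; 4.71 to 7.02 CPM). The intervals did not overlap. The ratio was 2.02 and the log2 difference 0.90 (0.50 to 1.54), and 1.23% of all genes had a difference as high or higher. Of its 6648 exonic bases, 1015 (15.3%) overlap the pseudogene Gm15937 and 82 overlap Ttc33, both on the opposite strand. Ttc33 stood at 30.7 CPM in the vector library and 31.4 CPM in the TRPM1 library, and Gm15937 had no value. The part of these overlaps in the Ptger4 values was not tested. Whether the counting told strands apart is not given in the sources used here.

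Ptger1 (chr8:83666678-83672753, plus strand) encodes EP1, which raises intracellular calcium. It was near the lower end of the table, at 1.49 CPM in the vector library and 1.08 CPM in the TRPM1 library (25 and 19 reads), a log2 difference of -0.34 (-1.41 to 0.45). No difference was detectable at this depth. The strand setting of the counting is not known here, and where gene models overlap, as at Ptger1, the level is uncertain. Ptger2 (chr14:44988195-45003820, plus strand), the gene of the other Gs-coupled receptor EP2, has no value.

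Levels of different genes are compared per kilobase of exonic length. In the vector library the order was Ptgs2 (103 CPM per kb), Ptgs1 (49.7), Pla2g4a (36.0), Ptges2 (2.56), Ptges (1.82), Ptger4 (0.432) and Ptger1 (0.274). The order was the same in the TRPM1 library, at 74.4, 34.4, 32.7, 2.61, 2.18, 0.870 and 0.197 CPM per kb. Neighbours whose levels did not differ beyond their counting intervals were Ptger4 and Ptger1 in the vector library, and Ptgs1 and Pla2g4a as well as Ptges2 and Ptges (per-length ratio 1.20, 0.973 to 1.48) in the TRPM1 library. Among all 13281 genes, Ptgs2 ranked at place 280 per length in the vector library and at place 467 in the TRPM1 library. Ptgs1 ranked at places 790 and 1355, and Pla2g4a at 1241 and 1454. The synthase and receptor genes lay far lower, with Ptger4 at places 12844 and 11976.

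**Figure D2:**
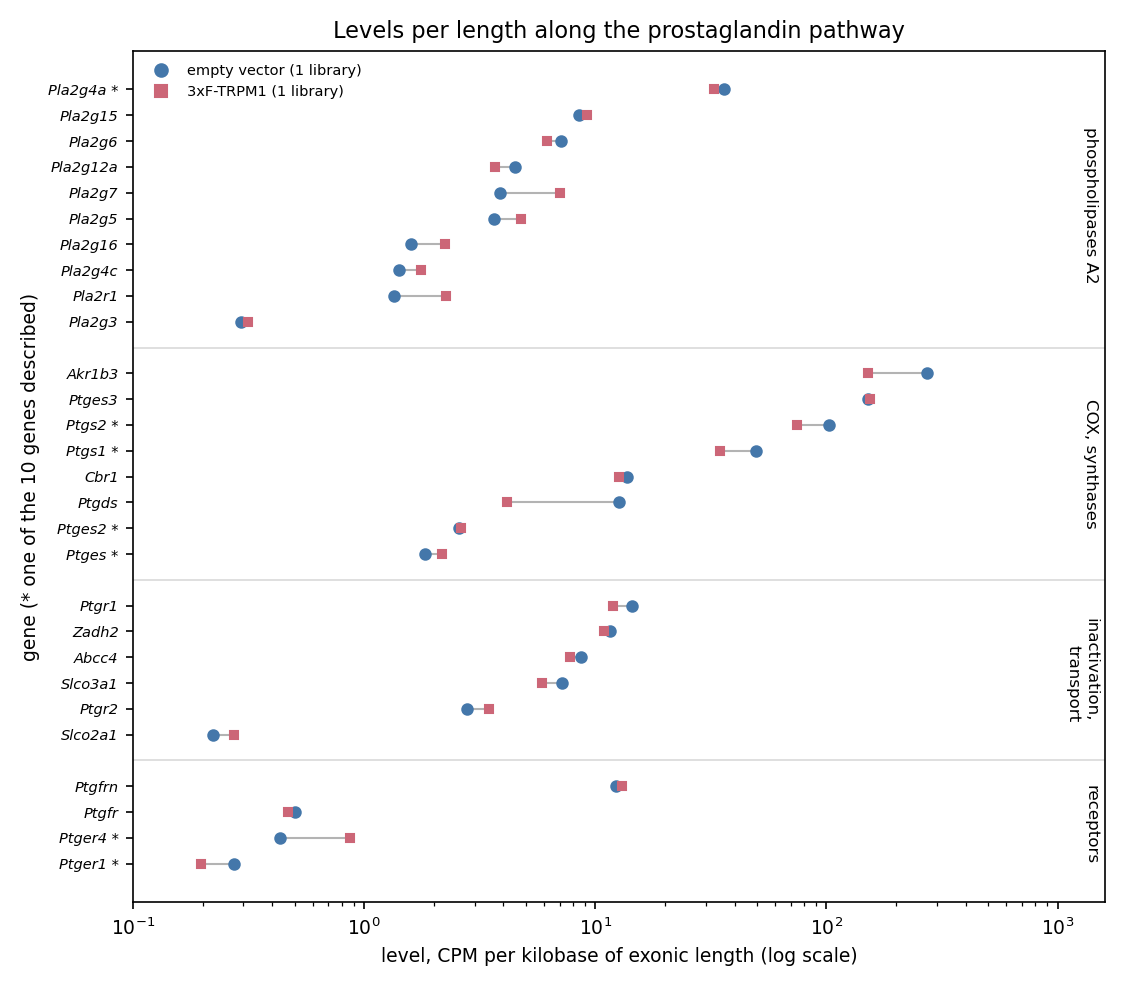
Levels per length, in CPM per kilobase of exonic length on a log axis, of all listed genes of the phospholipase A2, cyclooxygenase (COX) and synthase, inactivation and transport, and receptor groups. Circles are the vector library, squares the TRPM1 library, and asterisks mark genes of the described set. Ptgs2 stands at 103 and 74.4, Ptges and Ptges2 between 1.82 and 2.61, and Ptger4 and Ptger1 at 0.870 or less.

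The other genes of the pathway were taken from lists chosen by role, with earlier results of these data known. The lists also hold the described genes, so their counts and medians partly restate genes selected with their differences known. Ptgs1, Ptgs2, Ptges and Ptges2 are in the list of cyclooxygenases and synthases. Pla2g4a is in that of phospholipases, and Ptger1 and Ptger4 are in that of receptors. The counts of each list stand beside 3.91% of all genes higher, 3.07% lower and a median of 0.0093 over all genes. Among the cyclooxygenases and terminal synthases, 8 of 13 genes were listed, of which 0 were higher, 2 lower and 6 neither, with a median log2 difference of -0.29. The lower genes were Ptgds and Akr1b3. Ptgds, lipocalin-type prostaglandin D synthase, stood at 20.9 CPM in the vector library and 6.86 CPM in the TRPM1 library (350 and 121 reads), 3.05-fold lower, with a log2 difference of -1.54 (-1.92 to -1.31). Akr1b3, aldose reductase, which can also form prostaglandin F2α, stood at 2284 and 1265 CPM, a log2 difference of -0.85 (-0.88 to -0.83). Ptges3, the cytosolic prostaglandin E synthase that also acts as the HSP90 co-chaperone p23, stood at 335 and 342 CPM, a log2 difference of 0.03 (-0.02 to 0.08). Per length Ptges3 was at 151 and 154 CPM per kb, above Ptges and Ptges2 in both libraries. Cbr1, a carbonyl reductase that converts prostaglandin E2, had a log2 difference of -0.12 (-0.29 to 0.04).

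In the phospholipase A2 family, 10 of 22 genes were listed, of which 2 were higher and 0 lower, with a median of 0.20. Pla2g7, the platelet-activating factor acetylhydrolase, stood at 11.2 CPM in the vector library and 20.4 CPM in the TRPM1 library, a log2 difference of 0.83 (0.60 to 1.12). Pla2r1, a receptor for secreted phospholipases, stood at 12.97 and 21.7 CPM, a log2 difference of 0.72 (0.50 to 0.99). Neither product is the enzyme that supplies arachidonic acid to cyclooxygenases in most cells. Pla2g4a had the highest level per length of the family in both libraries.

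Inactivation and transport genes were listed for 6 of 7, with 0 higher, 0 lower and a median of -0.12. Slco3a1, an organic anion carrier, had a log2 difference of -0.28 (-0.42 to -0.15), and Ptgr1, which reduces oxidised prostaglandins, of -0.27 (-0.45 to -0.09). Ptgr2, another reductase of that pathway, had 0.31 (0.09 to 0.55). Among the prostanoid receptor genes 4 of 10 were listed, 1 higher (Ptger4) and 0 lower, with a median of 0.0032. Besides Ptger4 and Ptger1 the listed genes were Ptgfr, the prostaglandin F receptor, at 3.41 and 3.17 CPM, and Ptgfrn, its negative regulator, at 128 and 137 CPM. Ptgfr had a log2 difference of -0.09 (-0.66 to 0.46) and Ptgfrn of 0.10 (0.01 to 0.18), so Ptger4 was the receptor gene with the larger difference.

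**Figure D3:**
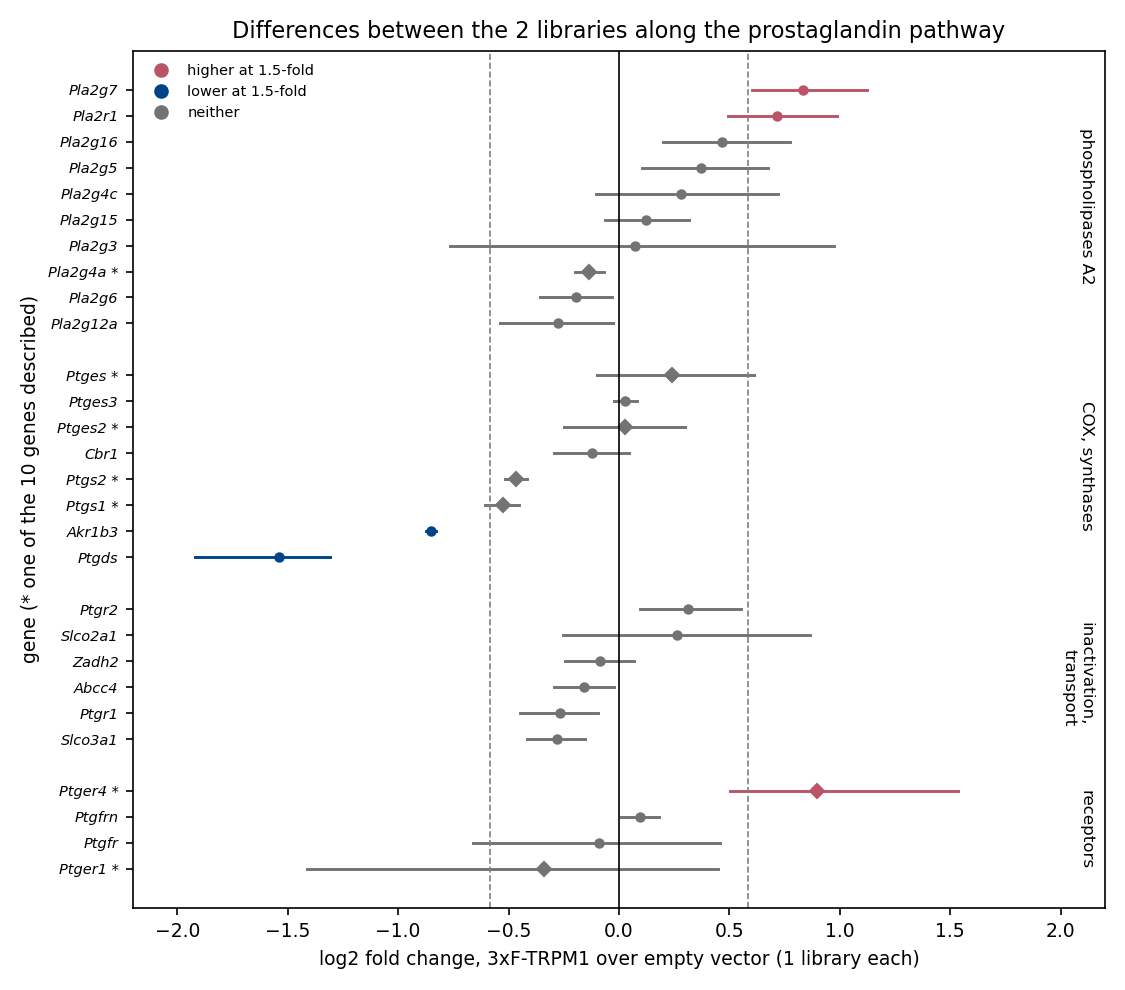
Log2 difference, 3xF-TRPM1 over empty vector, of the listed genes of the same 4 groups, with the 95% exact binomial interval as bars. Dashed lines mark 1.5-fold, colours mark genes called higher, lower or neither, and diamonds with asterisks are the described set. Ptger4 at 0.90 stands right of the dashed line, and Ptgs1 and Ptgs2 at -0.53 and -0.47 stand just inside it on the left, with Akr1b3 and Ptgds beyond it.

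Signalling downstream of the receptors was described by the same counts. Of 40 genes of Gs and cyclic AMP signalling, the pathway of EP4 and EP2, 30 were listed, 2 were higher and 1 was lower, with a median of -0.04. Higher were Pde7b, a cyclic AMP phosphodiesterase (1.73 and 4.08 CPM, log2 difference 1.04, 0.59 to 1.91), and Arrb1, the gene of beta-arrestin 1, which turns off and internalises receptors (43.9 and 68.5 CPM, 0.64, 0.51 to 0.78). Lower was Prkar1b, a regulatory subunit of protein kinase A, at 17.9 and 7.60 CPM, a log2 difference of -1.19 (-1.54 to -0.94). Of 20 transcripts that cyclic AMP can induce, 18 were listed, 2 were higher and 0 lower, with a median of 0.02. These were Ereg, the growth factor epiregulin (15.2 and 30.7 CPM, 0.99, 0.80 to 1.24), and Ppargc1a, a coactivator of mitochondrial genes (17.7 and 37.9 CPM, 1.08, 0.90 to 1.30). Immediate early genes of that list were neither higher nor lower by the rule, with 0.23 (-0.12 to 0.62) for Fos, -0.07 (-0.37 to 0.22) for Nr4a1 and -0.47 (-1.14 to 0.04) for Fosb. Pde4b, a phosphodiesterase that is itself induced by cyclic AMP, had 0.41 (0.26 to 0.58), and over the whole list 9 genes lay above 0 and 9 below.

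Gq and phospholipase C signalling, the pathway of EP1, had 9 of 11 genes listed, with 0 higher and 0 lower by the 1.5-fold rule and a median of 0.20. Plcb1, a phospholipase C, had 0.36 (0.12 to 0.63). Intervals are narrower for genes with more reads, and the lists were not matched to all genes by reads. By the interval alone, 6 of the 9 genes lay above and 1 below, against 23.1% and 19.7% of all genes. By the same measure 0 cyclooxygenase and synthase genes lay above and 4 below, 4 and 3 of the phospholipase A2 family, 1 and 3 of inactivation and transport, and 2 and 0 of the receptors. Described genes are among these: Ptgs1, Ptgs2 and Pla2g4a lay below and Ptger4 above. In Gs and cyclic AMP signalling 7 lay above and 6 below, and among transcripts that cyclic AMP can induce 5 and 1. Over all 10 lists, counting each gene once, 117 of 168 genes were listed, 10 were higher and 5 lower (3.91% and 3.07% of all genes), with a median of 0.04, and by the interval alone 33 lay above and 26 below (23.1% and 19.7%). Without the described genes the counts were 110 of 158 listed, 9 higher and 5 lower.

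**Figure D4:**
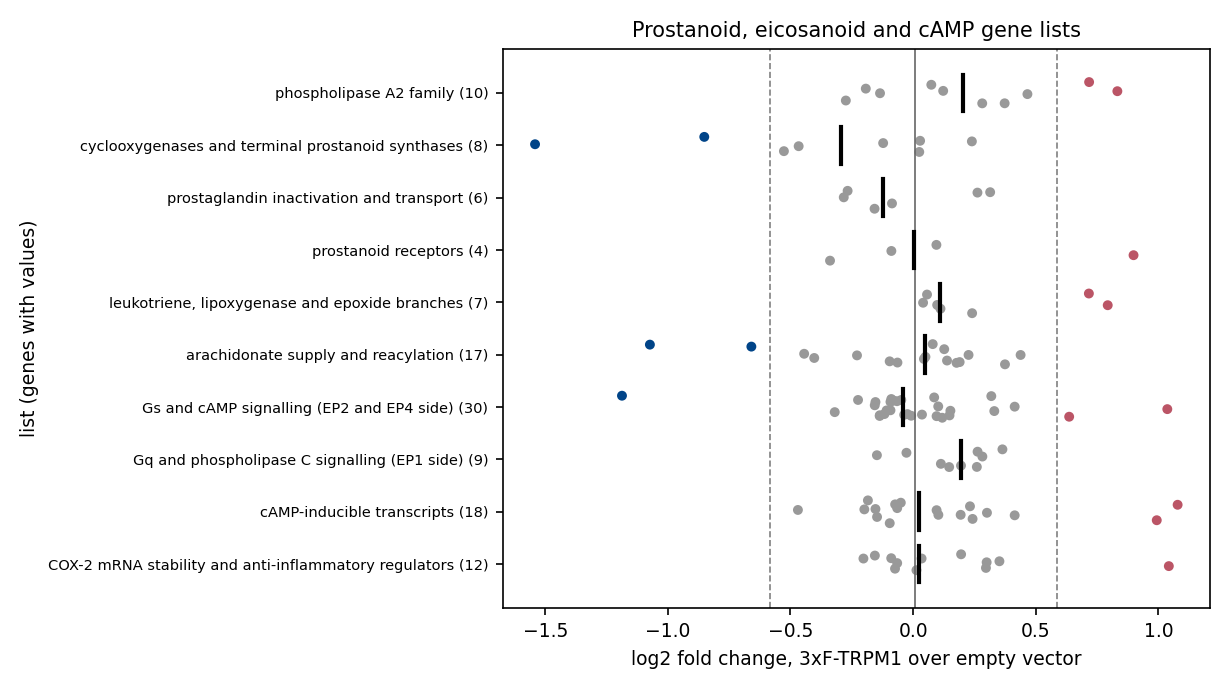
Log2 difference, 3xF-TRPM1 over empty vector, of every listed gene in each of the 10 lists (number of genes with values in parentheses), with black bars at the list medians. Dashed lines mark 1.5-fold, the grey line is the median of all genes, red points are higher and blue points lower. The cyclooxygenase and synthase list has the lowest median, -0.29, and the phospholipase A2 list the highest, 0.20. Both lists hold described genes, Ptgs1, Ptgs2, Ptges and Ptges2 in the first and Pla2g4a in the second.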

How the data were processed

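RNA from 661W cells with the empty vector and with 3xF-TRPM1 was sequenced as 1 library each (KAPA mRNA HyperPrep kit, NovaSeq). Per the submitters' processing notes and the methods, reads were aligned to GRCm38 with HISAT2 2.1.0 and counted per gene with featureCounts 2.0.0, and edgeR 3.28.1 and DESeq 1.40.0 were used. For the strand setting and the annotation release, the sources used here give nothing. The gene lengths equal the union of GENCODE M21 exons for 100% of 13275 matched identifiers, and coordinates are from that release. The values deposited by the authors are CPM for 13281 genes. The table also holds the authors' own fold changes, p-values and adjusted p-values, and a second table holds their gene set enrichment scores, none of which were used. A further 2 columns of values repeat the CPM columns and were not used.

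Log2 fold changes were computed from CPM with a pseudocount of 0.5. The filter, a mean of 1 CPM or more, removed 0 genes. CPM values were divided by the worth of 1 read, and 100% came out whole within 0.01, giving effective library sizes of 16728172 and 17639743 reads. These reads served for the 95% intervals (exact binomial for ratios, exact Poisson for levels) and for other scalings only. A threshold of 1.5-fold with an interval excluding 1-fold defined higher and lower. The procedure was tested on simulated reads that held counting error only. Variation between cultures was not part of that check. No test was possible with 1 library per group. The 10 genes and all lists were chosen with earlier results of these data known. All 10 genes are named, and of each pathway list every gene past the threshold. Further genes of these lists were picked for their difference or their role. Genes with differences as large as theirs were in part left out. The check of exon overlap, of which the result for Ptger1 is not reported here, and that of ATTTA motifs were chosen after values had been seen. Motifs were searched in RefSeq windows on both strands. Alternatives were total count and median-of-ratios scaling, pseudocounts of 0.1 and 1, a filter at a mean of 5 CPM, no filter, a 2-fold threshold and no interval. Computations ran in Python 3.11.15 with pandas 2.3.3, numpy 2.4.6 and scipy 1.17.1, and plots were drawn with matplotlib 3.10.9.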

Additional observations from a re-analysis of the deposited data

How the results depend on the processing

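The calls of the prostaglandin genes changed for Ptger4 alone: a 2-fold threshold left 0 genes higher, since its log2 difference with the pseudocount is 0.90, and a mean of at least 5 CPM also left 0, since its mean is below that limit. Over all genes the 2-fold threshold left 115 higher and 117 lower, and over the pathway lists 3 higher and 3 lower. A mean of at least 5 CPM left 351 of all genes higher and 217 lower, and 7 and 4 of the pathway lists. Under total count scaling the split of all genes turned from 519 higher and 408 lower to 442 and 480, and the median of all genes moved by -0.05 on the log2 scale. Over scalings and pseudocounts, log2 differences ran from 0.81 to 0.99 for Ptger4, from -0.57 to -0.53 for Ptgs1, from -0.51 to -0.47 for Ptgs2 and from -0.18 to -0.13 for Pla2g4a, while Ptges2 turned sign between -0.02 and 0.03. Without division by length the order of levels exchanged only Ptgs1 and Pla2g4a, in both libraries. No paired analysis was possible because each group has 1 library, and for the same reason no library could be left out. Depth limits Ptger1 (25 and 19 reads) most and leaves the difference between cultures unmeasured for every gene.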

Other observations

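Arachidonic acid also feeds other branches. Of 20 genes of the leukotriene, lipoxygenase and epoxide branches 7 were listed, with 2 higher and 0 lower in the TRPM1 library and a median log2 difference of 0.11. The higher genes were Cyp2j6, a cytochrome P450 of the family that forms epoxides of arachidonic acid (14.05 and 24.7 CPM, 0.79, 0.58 to 1.05), and Ephx2, the soluble hydrolase that breaks such epoxides down (1.49 and 2.78 CPM, 0.72, 0.17 to 1.65). Lta4h, which makes leukotriene B4, had a log2 difference of 0.24 (0.13 to 0.35). All 17 genes of arachidonate supply and reacylation were listed, 0 were higher and 2 lower, with a median of 0.05. The lower genes were Acsl6, which activates long-chain fatty acids (6.52 and 2.83 CPM, -1.07, -1.71 to -0.71), and Daglb, a diacylglycerol lipase that feeds endocannabinoid synthesis (14.7 and 9.13 CPM, -0.66, -0.98 to -0.40).

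COX-2 messenger RNA is known to turn over through AU-rich elements in its 3′ untranslated region. Counted in the longest annotated 3′ untranslated region, the letters ATTTA occurred 14 times in 2445 bases of Ptgs2 (5.73 per kb, 4.35% of 11832 genes had as many per kb or more), 4 times in 443 bases of Pla2g4a (9.03 per kb, 1.04%) and 5 times in 1233 bases of Ptger4 (4.06 per kb, 10.3%), against a median of 1.38 per kb. Ptgs1 had 0. Whether these letters have a part in any difference between the libraries was not tested. Of 12 regulators of COX-2 messenger stability and of inflammation, all were listed, 1 was higher and 0 lower, with a median of 0.02. The higher gene was Pparg, a nuclear receptor that binds lipid ligands, at 3.35 CPM in the vector library and 7.43 CPM in the TRPM1 library (1.04, 0.69 to 1.63). Anxa1, the glucocorticoid-induced inhibitor of phospholipase A2 activity, stood at 721 and 920 CPM (0.35, 0.32 to 0.39). Zfp36, which binds AU-rich elements, had a log2 difference of 0.20 (-0.15 to 0.57) and Elavl1, which stabilises such messengers, of -0.09 (-0.18 to -0.0040).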
